A study of Homo sapiens with 42 samples.

Results

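HIF-2α KIN is a clonal line of 786-O cells in which both copies of the HIF-2α gene, EPAS1, were edited so that the protein carries V5 and Halo tags at its N terminus. It was compared here with unedited WT 786-O cells. The samples were chosen by their labels alone, as the 3 libraries of HIF-2α KIN and the 3 libraries of WT in the first RNA-seq batch, 6 of the 27 libraries of that batch and of the 42 of the series. 786-O is an established clear cell renal carcinoma line without functional VHL and without functional HIF-1α, and the clone and the lines below were made from it. The other libraries of the batch are 3 of HIF-1β KIN, a clone with V5 and Halo tags at the N terminus of endogenous HIF-1β, and 18 of lines made from WT cells with a Halo-tagged HIF-1α or HIF-2α transgene under the L30 promoter (HIF-1α, HIF-1α R30E, HIF-1αDM, HIF-2α, HIF-2α R27E and HIF-2αDM, 3 each). The second batch holds 3 libraries of WT and 3 of the L30-driven HIF-2α line that are used below. Each KIN line is 1 clone grown from a sorted single cell, while WT is the unedited culture. A difference between HIF-2α KIN and WT therefore belongs to the tag, to the editing procedure or to the clone, which cannot be told apart.

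HIF-2α is an oxygen-regulated transcription factor that pairs with HIF-1β (gene ARNT) and binds hypoxia response elements. Prolyl hydroxylases of the EGLN family mark the α subunits, and VHL, the substrate receptor of a ubiquitin ligase, then sends them for degradation. In clear cell renal carcinoma VHL is usually lost, HIF-2α accumulates, and genes for angiogenesis, the cell cycle and matrix remodelling are driven by it. The comparison asks which transcripts differ in the edited clone that was made to follow HIF-2α as a single molecule.

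The tag was placed at the start of the reading frame. The first coding exon of EPAS1 holds only 26 coding bases, at chr2:46297912-46297937 on the plus strand of hg38, and they are shown because the tags precede them, with the start codon in capitals.

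EPAS1 first coding exon: ATGacagctgacaaggagaagaaaag

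The tag sequences are not part of hg38, so the counts on EPAS1 are of its own exons. EPAS1 lies at chr2:46293667-46386697 (plus strand, hg38, GENCODE release 44).

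Reads counted on genes numbered 51618486, 42377599 and 72801922 in the HIF-2α KIN libraries and 76188914, 66420117 and 101186554 in the WT libraries. A floor of 3 counts, used for genes that were absent from a group, stood for 2.11 to 4.28 normalized counts in these libraries and covers counting error only. Mitochondrial transcripts held 0.145% to 0.195% of the reads in HIF-2α KIN and 0.0943% to 0.214% in WT. The cells carried the renal epithelial markers that were looked for: PAX8, the renal lineage factor, had 17191 to 52666 counts per library and KRT8 had 95347 to 220308. CA9, a marker of clear cell carcinoma, had at most 3 counts in any of the 6 libraries. The marker lists of other cells were read in part. No read was found in any of the 6 libraries for 2 of 5 leukocyte markers (PTPRC and CD3E), 1 of 5 of endothelium (PECAM1), 1 of 5 of fibroblasts and pericytes (DCN), 1 of 5 of the proximal tubule (LRP2), 4 of 5 of the distal nephron (among them UMOD and AQP2) and for NPHS1 of podocytes. Of the fibroblast and pericyte markers, COL1A1 had 677 to 1550 counts, PDGFRB 126 to 1248, ACTA2 69 to 193 and LUM 16 to 119, and the summed level of the list was 974 to 1350 normalized counts in WT and 1960 to 2810 in HIF-2α KIN. Of the podocyte markers, PODXL had 1578 to 2303 counts and WT1 620 to 2712. CLDN5 of endothelium had 13 to 82 counts, SLC34A1 and CUBN of the proximal tubule 12 to 67 and 9 to 41, SLC12A3 of the distal nephron 3 to 42, and every other marker of these lists at most 7. Of the marker lists of other cells PDGFRB alone was called, and it was higher in the clone. Of the 14 markers of renal carcinoma and epithelium, CDH6 was called higher (7.14%) and CA12 and ANGPTL4 were called lower (14.3%). Of all tested genes 2.35% were called higher and 1.79% lower.

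Values below are normalized counts, that is reads scaled to a common library size, and log2 changes are HIF-2α KIN minus WT unless stated otherwise. A gene was called at an adjusted p-value of at most 0.01 in edgeR's quasi-likelihood test and a fold change of at least 2. Of 23410 genes tested, 550 were called higher in HIF-2α KIN (2.35% of those tested) and 420 were called lower (1.79%). All 970 were free of overlap between the 3 KIN and the 3 WT libraries, which the thresholds of the call make likely and which is no separate evidence. Changes of at least 8-fold were found for 101 of the higher and 125 of the lower genes, while 340 of the higher and 219 of the lower genes changed by less than 4-fold. In 72 of the lower genes every HIF-2α KIN library had 3 counts or fewer, and in 23 of the higher genes every WT library did. The median log2 change of all tested genes was -0.04. The study described RNA profiles of both edited lines as not significantly altered from WT, and its counts of differing genes were not compared here. In bulk RNA, a lower level in every cell and a loss from some of the cells cannot be told apart.

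**Figure D1:**
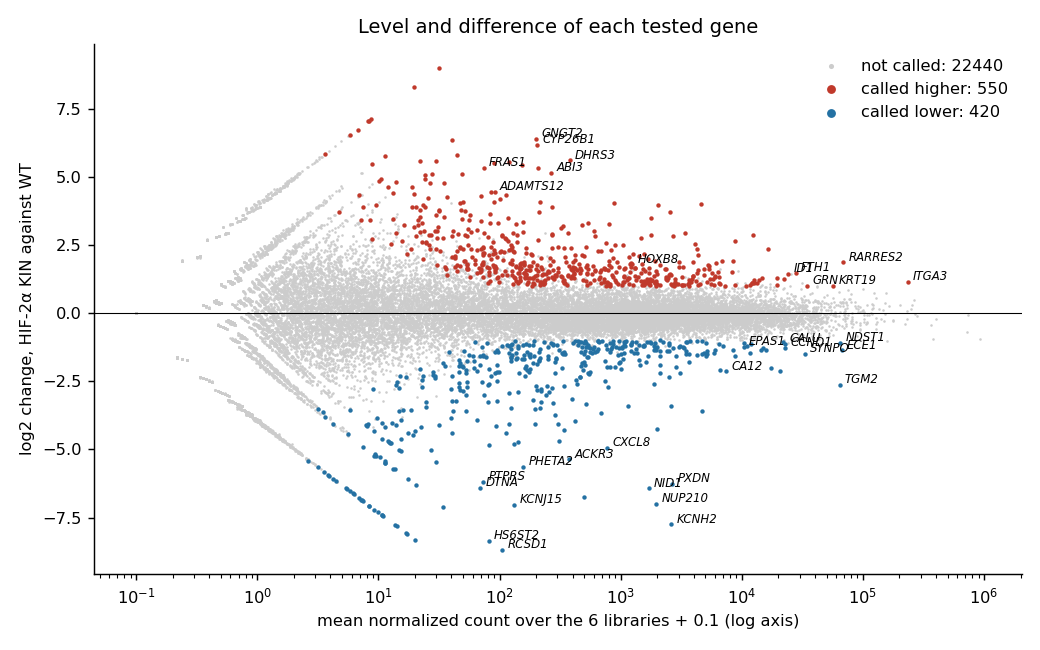
Each point is 1 of the 23410 tested genes, with its mean normalized count over the 6 libraries (plus 0.1, log axis) on the x axis and its log2 change, HIF-2α KIN against WT, on the y axis. Red and blue points are the 550 genes called higher and the 420 called lower, and the labelled genes are among those described in the text, with CYP26B1 far above 0 and NID1 and PXDN far below it.

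Among the genes of the HIF pathway itself, the transcript of the edited gene was lower. EPAS1 had 12563, 14335 and 16596 normalized counts in the WT libraries and 5801, 6741 and 5989.5 in the HIF-2α KIN libraries. The 3 clone libraries lay below every WT library and also below the other 21 libraries of the batch. The 18 L30-driven libraries, which include lines with a HIF-2α transgene, ran from 8033 to 67163. The mean in the clone was 42.6% of that in WT, a log2 change of -1.23 ± 0.20 (SE, n = 3 against 3, edgeR adjusted p = 0.000101). These are RNA levels. The paper reports from western blots that the tagged protein was present at levels similar to WT. Its ChIP-seq showed a binding profile of the tagged protein similar to that in unedited cells. ARNT, the dimer partner HIF-1β, had 1617, 1768 and 1481 in WT and 1682, 1934 and 1236 in the clone, and the groups overlapped. ARNT2, a second β subunit, had 1055, 1285 and 1144 in WT and 709, 579.6 and 424 in the clone, a log2 change of -1.03 ± 0.16 (SE, edgeR adjusted p = 4.13e-05). This change sat at the fold threshold: it was -0.85 without HIF-2α KIN replicate 3 and -0.95 without WT replicate 2, and neither passed. HIF-1β KIN had 703, 796 and 715 for ARNT2, also below every WT and L30-driven library, but was not called against WT (-0.65). The difference of -0.37 between the clones did not pass (edgeR adjusted p = 0.179). Of 10 tested members of the list of subunits and regulators, EPAS1 and ARNT2 were called lower and none higher (20% and 0%, beside 1.79% and 2.35% of all tested genes). With edgeR, 1 member was higher at an unadjusted p under 0.05, and DESeq2 called none higher and 1 lower.

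The sensors and regulators were not called. VHL, whose product is not functional in 786-O, had 1560.0, 1494 and 1302 in WT and 1289, 1557 and 1915 in the clone. EGLN1 had 1963 ± 443 in WT and 2432 ± 209.7 in the clone (mean ± SD, n = 3 each). EGLN3, itself a hypoxia-inducible hydroxylase, had 5793 ± 686 in WT and 5074 ± 383 in the clone. HIF1A had 238, 231 and 257 in WT and 281, 317 and 564 in the clone, a log2 change of 0.68 ± 0.23 (SE, edgeR adjusted p = 0.0605). Its clone libraries all lay above those of WT, but the difference did not pass. HIF1A lies on chromosome 14, whose genes averaging at least 50 normalized counts had a median log2 change of 0.35. The log2 changes were 0.18 for HIF1AN, the asparagine hydroxylase that inhibits HIF, 0.31 for EGLN2 and -0.09 for ARNTL.

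The genes around EPAS1 were not called. The other tested genes that start within 500 kb of it number 7. Their log2 changes were 0.13 for ATP6V1E2, -0.33 for RHOQ, 0.07 for PIGF, -0.33 for CRIPT and -0.36 for SOCS5, and LINC01118 and AC018682.1 had means of 1.25 and 3.36 normalized counts in WT. Transcripts of several of these neighbours overlap, and reads were counted without regard to strand, so their counts are uncertain.

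Many genes of a list of HIF-2α targets in renal carcinoma were lower in the clone. Of 25 tested genes, 11 were called lower and none higher, beside 1.79% and 2.35% of all tested genes, and the median log2 change was -0.69. DESeq2 also called none higher and 11 lower, and no member was higher at an unadjusted p under 0.05 with edgeR. Leaving out each library in turn left 10 or 11 called lower. This list, like the other gene lists here, was chosen with earlier results of these data known, so its counts are not independent evidence. It also includes PLXNA2, HSD3B7, GPRC5C and CPE, which the study itself chose from RNA-seq of this series. All 11 called members are described below, of which VEGFA, APLN, STC2 and NDRG1 fell outside the rule for naming genes and were added after their values were seen.

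Angiogenic and secreted factors were among them. VEGFA, the vascular growth factor, had 16330.0, 17259 and 15579 in WT and 8052, 7024 and 7417 in the clone, a log2 change of -1.13 ± 0.13 (SE, edgeR adjusted p = 8.77e-07). APLN, the ligand of the apelin receptor, had 738, 721 and 849 in WT and 235, 219.8 and 211 in the clone (-1.79 ± 0.16, edgeR adjusted p = 8.2e-09). ANGPTL4, an inhibitor of lipoprotein lipase, had 106, 91.9 and 112 in WT and 36.6, 34.3 and 33.0 in the clone (-1.58 ± 0.27, edgeR adjusted p = 0.000185). The clone and WT libraries of these 3 genes did not overlap. STC2, a secreted glycoprotein, had 23016 ± 2906 in WT and 8904 ± 1862 in the clone (mean ± SD, log2 change -1.37), and IL6, a cytokine, had 465 ± 153 in WT and 103 ± 45.3 in the clone (log2 change -2.18).

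The remaining called targets act in the cell cycle, in matrix, at the cell surface and in stress responses. CCND1, cyclin D1, had 26043, 33106 and 37664 in WT and 13630.1, 12664 and 13344 in the clone, a log2 change of -1.29 ± 0.22 (SE, edgeR adjusted p = 0.000139). CA12, a membrane carbonic anhydrase at chr15:63321378-63381846 (minus strand), had 13247, 12633 and 10001 in WT and 2847, 3346 and 1969 in the clone (-2.14 ± 0.24, edgeR adjusted p = 5.97e-07). LOX, lysyl oxidase, which crosslinks collagen and elastin, had 682, 616 and 871 in WT and 157, 78.5 and 157 in the clone (-2.45 ± 0.22, edgeR adjusted p = 8.26e-09). PLXNA2, a semaphorin receptor, was the most reduced of the abundant targets: it fell from 314, 389 and 473 in WT to 44.5, 44.3 and 19.4 in the clone, which is 9.20% of the WT mean (log2 change -3.49 ± 0.28, edgeR adjusted p = 1.87e-09). NDRG1, a stress-responsive gene, had 29433 ± 2757 in WT and 14309.7 ± 1924 in the clone (log2 change -1.04). CXCR4, the receptor of CXCL12, had 16.5, 18.4 and 14.8 in WT and no read in any clone library, so it was at least 4.62-fold lower against a floor of 3 counts per library. CA12, LOX, PLXNA2, APLN, ANGPTL4 and CCND1 were lower in all 3 clone libraries than in each of the other 24 libraries of the batch.

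**Figure D2:**
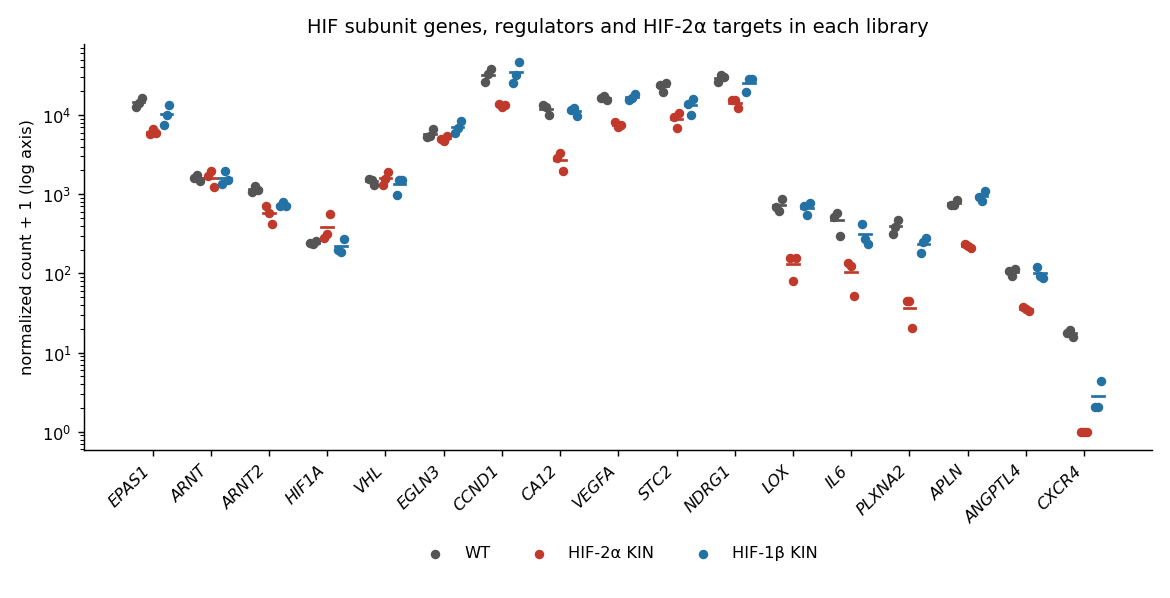
Normalized counts plus 1 (log axis) of HIF subunit genes, regulators and the 11 called HIF-2α targets in each library of WT (grey), HIF-2α KIN (red) and HIF-1β KIN (blue), with bars at the group means (n = 3 each). The red points of EPAS1 and of the targets from CCND1 to CXCR4 lie below the grey ones, while those of ARNT, VHL and EGLN3 reach the grey ones.

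The same list was measured with added HIF-2α in other libraries. In the second batch, 20 of the 25 genes were called higher in the L30-driven HIF-2α line than in WT, beside 5.45% of 28724 tested genes called higher and 2.13% called lower there. The list was chosen with earlier results of these data known, so these calls are not independent evidence either. The study itself chose PLXNA2, HSD3B7, GPRC5C and CPE from RNA-seq of this series. Of the 11 members lower in HIF-2α KIN, 9 were among these 20, the exceptions being STC2 (log2 change 0.19) and IL6 (log2 change 0.52). PLXNA2 had 443 ± 49.6 normalized counts in WT of that batch and 7038 ± 316 in the HIF-2α line (mean ± SD, n = 3 each), and ANGPTL4 had 56.2 ± 23.4 and 2243 ± 365.

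The 250 bases before the transcription start of called targets were read from RefSeq (GRCh38.p14), which matched 8 of the 11 genes. The core of the hypoxia response element was searched as ACGTG or GCGTG on both strands, 2 patterns that can share bases with a neighbouring match. It was found in 6 of the 8 genes (75%), in 8 of 11 matched targets that were not called (72.7%) and in 61.9% of 12661 matched tested genes. Windows of 3 called targets are shown, written 5′ to 3′ toward the start of transcription with the cores in capitals: LOX (chr5:122078260-122078509, minus strand) because it holds the most cores, CA12 (chr15:63381847-63382096, minus strand) as an abundant target and APLN (chrX:129654957-129655206, minus strand) as a secreted one.

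LOX: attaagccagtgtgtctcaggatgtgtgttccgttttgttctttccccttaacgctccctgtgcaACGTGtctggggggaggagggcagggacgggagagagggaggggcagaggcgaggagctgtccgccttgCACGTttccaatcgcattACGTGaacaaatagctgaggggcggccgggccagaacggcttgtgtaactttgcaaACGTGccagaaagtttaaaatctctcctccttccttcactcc
CA12: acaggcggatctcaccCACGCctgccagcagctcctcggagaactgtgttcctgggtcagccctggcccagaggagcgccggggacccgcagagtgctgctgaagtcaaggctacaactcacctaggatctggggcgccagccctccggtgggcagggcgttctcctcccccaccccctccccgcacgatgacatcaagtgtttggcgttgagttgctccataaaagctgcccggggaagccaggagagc
APLN: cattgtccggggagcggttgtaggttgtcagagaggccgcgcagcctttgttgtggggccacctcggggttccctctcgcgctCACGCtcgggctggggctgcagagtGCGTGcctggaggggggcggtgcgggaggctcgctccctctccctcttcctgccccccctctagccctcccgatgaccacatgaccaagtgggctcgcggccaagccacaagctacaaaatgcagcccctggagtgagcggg

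The list of general hypoxia and HIF-1α targets, mostly genes of glycolysis and glucose uptake, had 1 member called higher and 2 called lower of 31 tested (3.23% and 6.45%, beside 2.35% and 1.79% of all tested genes), with a median log2 change of -0.11. It includes PPFIA4 and PTPRN, which the study chose from this series as genes that respond to HIF-1α, and neither was called. PFKFB3, which makes the activator of glycolytic phosphofructokinase, had 12250.4, 13027 and 14655 in WT and 33075, 29601 and 32079 in the clone (log2 change 1.25 ± 0.16, edgeR adjusted p = 3.19e-06). HK2, hexokinase 2, had 3701, 4843 and 4366 in WT and 1762, 2397 and 1471 in the clone (-1.20 ± 0.19, edgeR adjusted p = 8.7e-05). INSIG2, an inhibitor of sterol-regulated transcription, was the other lower gene (-1.03, edgeR adjusted p = 0.00085) and lost its call without HIF-2α KIN replicate 1 (-0.84) or without WT replicate 3 (-0.98), which left 1 gene of the list called lower. Blocking on the replicate number, 4 genes of the list were called lower.

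Many inflammatory mediators were lower. Of 25 tested chemokines, cytokines and NF-κB targets, 10 were called lower and 1 higher (40% and 4%, beside 1.79% and 2.35% of all tested genes), with a median log2 change of -0.98 (-0.82 with genes at the floor set at their bound). CXCL8, the neutrophil chemokine interleukin-8, had 1579.8, 1445 and 1473 in WT and 23.5, 50.0 and 69.3 in the clone (-4.94 ± 0.59, edgeR adjusted p = 1.12e-06). CSF2, the cytokine GM-CSF, had 491, 558 and 725 in WT and 11.8, 37.1 and 21.1 in the clone (-4.68 ± 0.47, edgeR adjusted p = 6.44e-08). CXCL8 and CSF2 were thus at a few percent of their WT level, 3.17% and 3.95%. ICAM1, an adhesion receptor for leukocytes, had 28159 ± 5785 in WT and 6949 ± 541 in the clone (log2 change -2.02), and CXCL1, CXCL5, TNFAIP3 and IL7R had log2 changes of -2.18, -1.55, -1.38 and -1.44. CCL20 and CXCL12 had means of 27.3 and 21.2 in WT and no read in the clone, so they were at least 7.64-fold and 5.93-fold lower. TNFAIP6, an inflammation-induced hyaluronan-binding protein, was the exception, with 27.3, 18.4 and 11.2 in WT and 169, 234 and 242 in the clone. Of the 10 lower genes, 8 were below all 24 other libraries of the batch in each clone library.

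CXCL12 and both of its receptors were lower together. Beside CXCR4 and CXCL12, ACKR3, the scavenging receptor of CXCL12 at chr2:236567787-236582354, had 917, 735 and 546 in WT and 26.2, 15.7 and 12.7 in the clone, a log2 change of -5.36 ± 0.39 (SE, edgeR adjusted p = 1.97e-10). HIF-1β KIN had 508, 539 and 346 for ACKR3, each above all HIF-2α KIN libraries. The ligand and CXCR4 were also low in HIF-1β KIN, at 4.30, 3.19 and 7.69 for CXCL12 and 1.08, 1.06 and 3.42 for CXCR4. The difference between the clones passed for CXCL12 (edgeR adjusted p = 0.00141) and not for CXCR4 (edgeR adjusted p = 0.177).

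The abundant genes with the largest reductions differed in their level in the other clone. NID1, a basement membrane linker of laminin and collagen IV at chr1:235975830-236065109 (minus strand), had 3398, 3369 and 3329.7 in WT, 39.2, 27.1 and 48.2 in HIF-2α KIN and 2787, 3125 and 3220.1 in HIF-1β KIN (log2 change against WT -6.43 ± 0.20, edgeR adjusted p = 4.9e-18). PXDN, peroxidasin, which crosslinks collagen IV, at chr2:1631887-1744852 (minus strand), had 5043, 5016 and 5633 in WT, 44.5, 57.1 and 98.9 in HIF-2α KIN and 4604, 4438 and 6268 in HIF-1β KIN (-6.26 ± 0.27, edgeR adjusted p = 9.4e-15). Both basement membrane genes were thus near 1% of WT in HIF-2α KIN (1.13% and 1.28%) and near WT in HIF-1β KIN, and their 18 L30-driven libraries ran from 1949 to 3645 and from 2071 to 10514.

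Others were lower in both clones. KCNH2, the hERG potassium channel at chr7:150944961-150978321 (minus strand), had 4597, 4684 and 6336 in WT, 9.16, 25.7 and 34.6 in HIF-2α KIN and 23.7, 20.2 and 41.9 in HIF-1β KIN. NUP210, a nuclear pore membrane protein, had 3461, 3949 and 4305 in WT, 15.7, 20.0 and 49.9 in HIF-2α KIN and 5.38, 2.13 and 18.8 in HIF-1β KIN. For both genes the libraries of both clones lay far below those of WT. The log2 changes of HIF-2α KIN against WT were -7.75 for KCNH2 and -7.01 for NUP210. For neither gene did the difference between the clones pass in edgeR (adjusted p = 0.784 and 0.0179). In the 18 L30-driven libraries, which come from pools of transfected WT cells and not from clones, KCNH2 ran from 804 to 5435 and NUP210 from 1351 to 5107.

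Of the lower genes with 3 counts or fewer in every clone library, the 6 highest in WT were HS6ST2, RCSD1, DTNA, PTPRS, KCNJ15 and CALB2. HS6ST2, a heparan sulfate sulfotransferase, had 184, 134 and 167 in WT and was at least 45.2-fold lower. RCSD1, an actin-capping regulator, had 192, 193 and 242 and was at least 58.3-fold lower, KCNJ15, a potassium channel, had 258, 309 and 218 and was at least 73.1-fold lower, and DTNA, α-dystrobrevin, had 144, 144 and 123 and was at least 38.2-fold lower. For PTPRS, a receptor phosphatase, and CALB2, calretinin, the bounds were 40.6-fold and 19.1-fold. PHETA2, an endosomal protein, was also among the largest reductions, with 284, 292 and 342 in WT and 10.5, 2.86 and 5.07 in the clone. PHETA2, KCNJ15, HS6ST2 and DTNA lay between the clone and WT in HIF-1β KIN, with means of 35.9, 15.7, 8.83 and 54.5 there against 306, 262, 162 and 137 in WT, and each was called lower in HIF-2α KIN than in HIF-1β KIN.

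The largest increases included genes of retinoid metabolism. CYP26B1, the hydroxylase that breaks down retinoic acid, at chr2:72129238-72147862 (minus strand), had 3.30, 11.6 and 2.11 in WT and 430.4, 354 and 412 in the clone, a log2 change of 6.18 ± 0.58 (SE, edgeR adjusted p = 2.17e-08). DHRS3, which returns retinaldehyde to retinol, at chr1:12567910-12618210 (minus strand), had 10.7, 29.0 and 7.03 in WT and 1069, 681 and 481 in the clone (5.60 ± 0.74, edgeR adjusted p = 5.6e-06). ALDH1A1, which makes retinoic acid from retinaldehyde, had 1761, 1798 and 1253 in WT and 5056, 7663 and 8620.1 in the clone (2.15 ± 0.30, edgeR adjusted p = 1.33e-05). The clone libraries of all 3 genes lay above those of WT, and also above every L30-driven library, the highest of which had 245.9 for CYP26B1, 424.8 for DHRS3 and 5033 for ALDH1A1. HIF-1β KIN lay between, with 79.6, 166 and 59.8 for DHRS3 and means of 12.8 for CYP26B1 and 2730 for ALDH1A1. Its log2 changes against WT were 2.73, 1.23 and 0.77 for DHRS3, CYP26B1 and ALDH1A1.

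RARRES2, chemerin, a secreted retinoid-responsive protein, had 32970.4, 28944 and 27048 in WT and 121973, 76076 and 125357 in the clone, which made it one of the most abundant higher genes. TGM2, transglutaminase 2, also retinoid-responsive, went the other way, from 84215, 112991 and 133588 in WT to 15763, 21136 and 16377 in the clone (-2.63 ± 0.24, edgeR adjusted p = 1.17e-08). Of 25 tested genes of retinoid metabolism and response, 4 were called higher (16%) and 1 lower (4%), beside 2.35% and 1.79% of all tested genes, and the median log2 change was 0.61.

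The other large increases were of varied function. FREM2, a protein of the embryonic basement membrane, had 10.7, 3.87 and 5.62 in WT and 272, 359.7 and 264 in the clone, and its partner FRAS1 had 1.65, 7.74 and 1.41 in WT and 144, 199.9 and 87.9 in the clone. PTH1R, the parathyroid hormone receptor, had 4.83 ± 2.82 in WT and 233 ± 18.6 in the clone, SLC23A1, a vitamin C transporter, had 4.01 ± 4.93 and 176 ± 54.5, and BOC, a Hedgehog co-receptor, had 10.0 ± 3.51 and 406 ± 28.7. Of the secreted proteases ADAMTS12 rose from a mean of 7.71 to 174 and HABP2 from 7.51 to 163, and ELFN1, a synaptic adhesion protein, rose from 10.6 to 216. Every library of the clone was above every WT library for these genes. ADAMTS12 was also called higher in HIF-1β KIN than in WT, with a mean of 78.7 there. Against WT, HIF-1β KIN also had log2 changes of 2.27 for SLC23A1, 1.93 for FREM2, 1.48 for HABP2 and 1.22 for BOC. Its changes were 0.60 for FRAS1 and -3.47 for PTH1R. In the L30-driven libraries ADAMTS12 ran from 12.7 to 253, a range that holds the clone. GNGT2, a G protein γ subunit, and ABI3, an adaptor of actin regulators, rose together: GNGT2 had 10.7, 0 and 2.81 in WT and 529, 373 and 279 in the clone, and ABI3 had 2.48, 18.4 and 22.5 and 460.5, 488 and 609. These are neighbours on chromosome 17 (chr17:49202791-49210574, minus strand, and chr17:49210411-49223225, plus strand) whose annotated 5′ ends overlap, so reads counted without strand cannot be fully assigned to one or the other. The same limit holds for other named genes that share a stretch with a neighbour in the annotation, among them LOX with SRFBP1, PTH1R with MYL3, FTH1 with BEST1, TGM2 with RPRD1B and HABP2 with NRAP.

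Of the higher genes with 3 counts or fewer in every WT library, the 6 highest in the clone were SLC40A1, HPD, FOXJ1, ST8SIA4, SLC5A10 and STAT4. SLC40A1, the iron exporter ferroportin, had 75.9, 106 and 60.0 in the clone and was at least 32.3-fold higher. HPD, an enzyme of tyrosine breakdown, had 120.4, 30.0 and 39.7 and was at least 25.4-fold higher, and SLC5A10, a sugar transporter of the kidney, had 52.3, 22.8 and 41.4 and was at least 15.6-fold higher. FOXJ1, a regulator of motile cilia, and ST8SIA4, a polysialyltransferase, were at least 23.5-fold and 17.3-fold higher. STAT4, a cytokine-activated transcription factor, was at least 10.9-fold higher, and lost its call without WT replicate 2 (edgeR adjusted p = 0.0155) or without WT replicate 3 (edgeR adjusted p = 0.0224).

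**Figure D3:**
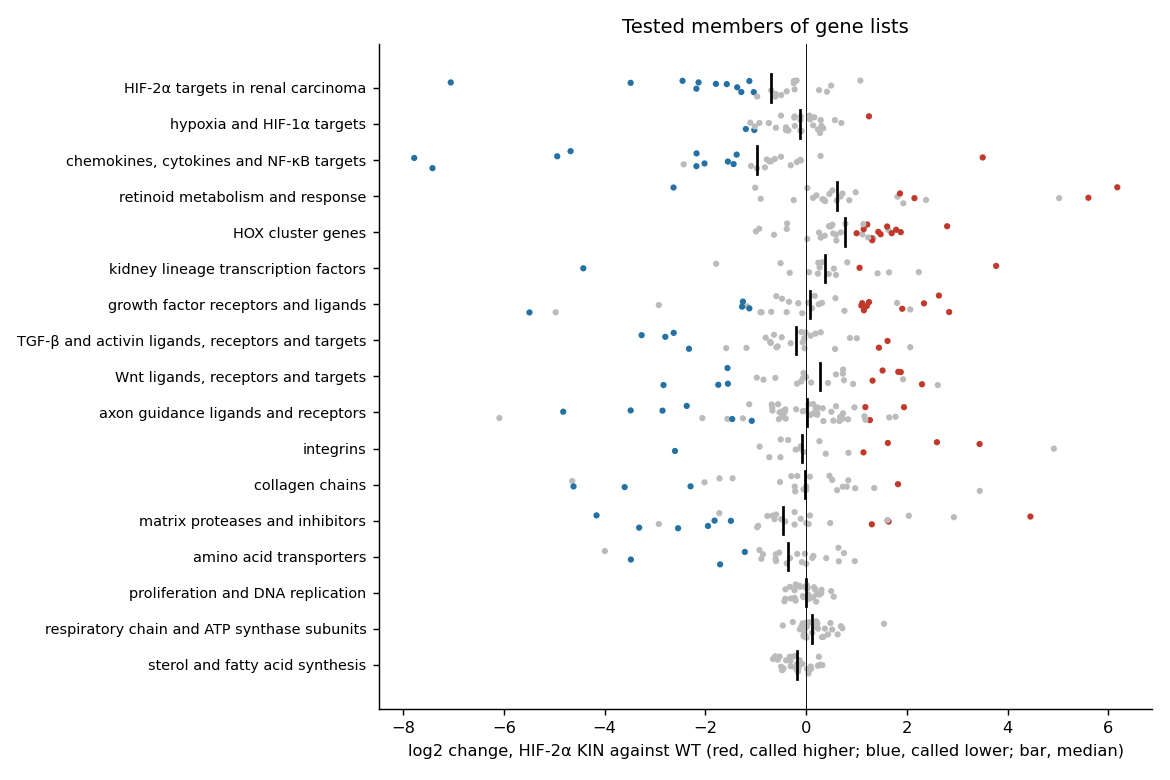
Each point is the log2 change, HIF-2α KIN against WT, of 1 tested member of a gene list, with red and blue for members called higher and lower and a black bar at the median. The HIF-2α targets and the cytokines lie mostly left of 0 and the HOX genes mostly right of it, while no member is coloured in the lists of proliferation, respiratory chain or sterol synthesis.

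Many HOX genes, the positional regulators of the embryo, were higher. Of 35 tested, 12 were called higher (34.3%, beside 2.35% of all tested genes) and none lower, with a median log2 change of 0.78. No HOX gene was called lower by DESeq2 either, 3 were lower at an unadjusted p under 0.05 with edgeR, and 1 was called lower without HIF-2α KIN replicate 3. Leaving out a library gave 8 to 12 called higher, the lowest number without WT replicate 2. HOXB8 had 536, 538 and 593 in WT and 1869, 1620.3 and 2256 in the clone (1.79 ± 0.21, edgeR adjusted p = 7.38e-07), and HOXA5 had 393, 396 and 417 and 1514, 1328 and 1593 (1.88 ± 0.25, edgeR adjusted p = 6.66e-06). HOXB6 had a log2 change of 1.70, and HOXB13 one of 2.80, which was 2.56 and not called without WT replicate 2. The 9 called HOXB genes are all of the HOXB genes tested and lie on chromosome 17, described below. The other 3 are HOXA5, HOXA9 and HOXA10 on chromosome 7, and the 26 HOX genes tested outside chromosome 17 had a median of 0.53.

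Among transcription factors of the kidney lineage, 2 of 18 were called higher (11.1%) and 1 lower (5.56%), beside 2.35% and 1.79% of all tested genes. OSR1, an early factor of the intermediate mesoderm, had 8.26, 2.90 and 7.73 in WT and 91.6, 71.4 and 103 in the clone (3.77 ± 0.73, edgeR adjusted p = 0.000714). SALL1, a factor of nephron progenitors, had 1679 ± 102 in WT and 3500.5 ± 573 in the clone, with a log2 change of 1.06 that fell to 0.94 and was not called without HIF-2α KIN replicate 2. POU3F3 had 3.30, 12.6 and 16.2 in WT and 3 counts or fewer in every clone library. It was called lower, but not without HIF-2α KIN replicate 2 or 3 or without WT replicate 2 or 3.

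Growth factor receptors and ligands changed in both directions, 9 of 34 higher (26.5%, beside 2.35% of all tested genes) and 4 lower (11.8%, beside 1.79%). All 4 genes of the FGF receptor family were higher: FGFR3 had 802 ± 55.5 in WT and 3008 ± 727 in the clone (1.91), and FGFR1, FGFR2 and FGFR4 had log2 changes of 1.11, 1.25 and 1.20. PDGFRB, the PDGF receptor β, had 157, 122 and 171 in WT and 1372, 799 and 1055 in the clone (2.84 ± 0.26, edgeR adjusted p = 1.61e-08). MERTK, a receptor kinase for the uptake of dying cells, had 43.8, 30.0 and 23.9 and 169, 228 and 210.4. The ligand BTC, betacellulin, was also higher (2.34). Its mean was 19.2 in WT, 96.5 in the clone and 66.2 in HIF-1β KIN, and the L30-driven libraries ran from 17.0 to 118. The lower genes were ligands: VEGFA, HBEGF (-1.26), PDGFA (-1.27) and PDGFD, which had 37.2, 17.4 and 11.9 in WT and at most 3 counts in any clone library, at least 6.19-fold lower. The FGF receptor genes, HBEGF and PDGFA were singled out after their values were seen.

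In the Wnt pathway 5 of 26 genes were called higher and 4 lower (19.2% and 15.4%, against the same 2.35% and 1.79% of all tested genes). WNT7B, a secreted ligand, had 1935, 3033 and 3048 in WT and 9147, 10173 and 9149 in the clone (1.83 ± 0.24, edgeR adjusted p = 4.38e-06), and WNT3 had 30.1 ± 4.18 and 149 ± 39.5. FZD2, a Wnt receptor, had 1189, 1233 and 1472 and 5309, 3854 and 5151 (1.88 ± 0.21, edgeR adjusted p = 3.54e-07). WNT10A, another ligand, was lower, with 384, 314 and 366 in WT and 31.4, 42.8 and 72.7 in the clone. Of the 5 higher genes 3 lie on chromosome 17, and 3 of the list were called higher without HIF-2α KIN replicate 3, without WT replicate 1 or without WT replicate 2. In the TGF-β and activin list, 2 of 28 were higher (7.14%), ID1 and GDF15, and 4 lower (14.3%), and without HIF-2α KIN replicate 2 the higher ones were 4. INHBA, the activin A subunit, had 3998, 3958 and 4502 in WT and 867, 861 and 755 in the clone (-2.33 ± 0.25, edgeR adjusted p = 2.94e-07), and INHBE, LTBP1 and NOG, an activin subunit, a TGF-β binding protein and a BMP antagonist, had log2 changes of -3.27, -2.63 and -2.80.

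Adhesion and matrix genes changed in both directions. Of 18 integrin genes, 4 were called higher and 1 lower (22.2% and 5.56%, beside 2.35% and 1.79% of all tested genes). ITGA3, the α3 subunit of a laminin receptor, was the most abundant of all higher genes, with 119418, 144925 and 172940.2 in WT and 321381, 337919.7 and 302848 in the clone (1.14 ± 0.20, edgeR adjusted p = 0.000336). ITGB4 had 43.8, 30.0 and 43.6 and 280.0, 239.8 and 194, and ITGA4 and ITGB6 had log2 changes of 3.44 and 1.62. ITGB8, an activator of TGF-β, was lower, with 3031, 3302 and 3373 in WT and 443, 621 and 531 in the clone, and without HIF-2α KIN replicate 1 a second integrin gene was called lower. Of 26 collagen chains, 1 was higher (3.85%) and 3 lower (11.5%). COL6A3 had 8276, 8743 and 8783 in WT and 661, 769 and 692 in the clone (-3.60 ± 0.20, edgeR adjusted p = 1.38e-12), and COL4A5, a basement membrane chain, had 589, 567 and 449.8 and 2251, 1782 and 1645 (1.82 ± 0.23, edgeR adjusted p = 1.95e-06). COL5A1, with 29.6 in WT, was at least 8.27-fold lower, and COL13A1 (-2.30) lost its call without HIF-2α KIN replicate 1 or 2 or WT replicate 3, with log2 changes from -1.96 to -1.84.

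Of 30 matrix proteases and inhibitors 4 were higher (13.3%) and 6 lower (20%), beside 2.35% and 1.79% of all tested genes, with ADAMTS5, an aggrecan-cleaving protease, falling from 1095, 807 and 904 in WT to 94.2, 75.7 and 109.9 in the clone, and MMP16, a membrane protease with a WT mean of 42.4, at least 11.8-fold lower. Of 31 genes for heparan and chondroitin sulfate, 2 were higher (6.45%), HPSE (1.77) and HS3ST1 (1.69), and 3 were lower (9.68%), among them HS6ST2 above and NDST1, a heparan sulfate sulfotransferase with 88260.2 ± 17629 in WT and 41404 ± 4421 in the clone. The change of NDST1 was -1.09, and -0.93 and not called without WT replicate 3. Among 52 axon guidance genes 3 were higher (5.77%) and 6 lower (11.5%). NTN1, netrin-1, had 145, 162 and 164 in WT and 5.23, 8.57 and 3.38 in the clone, and its receptor UNC5B had 377, 297 and 479 and 78.5, 21.4 and 58.3. EPHB1, an ephrin receptor, had a log2 change of -2.37. Of 23 genes of epithelial or mesenchymal state 2 were higher (8.7%, and 1 gene in each fit without HIF-2α KIN replicate 1 or 3 or WT replicate 1 or 2) and 3 lower (13%), the lower ones being the junction genes CLDN1 (-2.10) and EPCAM (-3.20) and the cadherin gene CDH11, at least 6.81-fold lower, with CDH6, a kidney cadherin, among the higher ones (1.91). CDH6 had means of 2855 in WT, 10758 in the clone and 5574 in HIF-1β KIN, and the L30-driven libraries ran from 2997 to 13116. MFNG, a glycosyltransferase acting on Notch, had 3347, 3968 and 4073 in WT and 145, 171 and 271 in the clone and was the 1 lower gene of 18 in the Notch list. HES1, a Notch target, was the 1 higher gene (1.03), and was not called without WT replicate 1. In the Notch list each of these is 5.56% of its members.

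Lists of housekeeping and growth genes held no called gene, and in lists of this size a background of 2.35% higher and 1.79% lower also gives few. None of 32 genes of proliferation and DNA replication, 33 of the respiratory chain, 30 of sterol and fatty acid synthesis and 15 encoded by mitochondria was called by edgeR or by DESeq2. At an unadjusted p under 0.05, edgeR gave 2 higher and 0 lower for proliferation, 4 and 0 for the respiratory chain, 0 and 8 for sterol synthesis, and 1 and 2 for mitochondrial genes. Blocking on the replicate number, 2 mitochondrial genes were called lower and 1 respiratory chain gene higher. The median log2 changes of the 4 lists were 0.003, 0.12, -0.18 and -0.03. CDC20 and MCM7, the most abundant proliferation genes, had 37952 ± 1676 and 54142 ± 3045 in WT and 43969.8 ± 4083 and 53410.5 ± 9503 in the clone. In the respiratory chain list ATP5F1B and CYC1 had log2 changes of -0.01 and -0.04, and in sterol and fatty acid synthesis FASN had 0.05.

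A few called genes were found in the lists of stress, transport and interferon genes. Of 24 amino acid transporters 3 were called lower (12.5%, beside 1.79% of all tested genes) and none higher by edgeR, with 3 higher at an unadjusted p under 0.05 and 1 called higher by DESeq2. SLC6A9, a glycine transporter, had 2108, 2190.4 and 2228 in WT and 661, 641 and 693 in the clone, and SLC7A11, the cystine transporter, had 2579, 1976 and 1864 and 827, 1128 and 806. Of 31 genes of the unfolded protein and amino acid stress response 2 were lower (6.45%). ALDH1L2, a mitochondrial folate enzyme, had 74.1 ± 25.2 in WT and 5.06 ± 0.758 in the clone, and CHAC1, a glutathione-degrading enzyme, changed by -1.89 (edgeR adjusted p = 0.00356) and lost its call without HIF-2α KIN replicate 1 or 2 or WT replicate 3, with log2 changes from -1.86 to -1.50. HIF-1β KIN was also called lower than WT for ALDH1L2 (mean 1.78) and not for CHAC1 (mean 1724). Of 36 interferon-stimulated genes IFI27 was higher (259, 263 and 174 in WT and 1729, 1056 and 615 in the clone) and 2 were lower, MX2 (-3.60) and HERC5 (-1.40), with a median of -0.41. These are 2.78% and 5.56% of the interferon-stimulated genes, beside 2.35% and 1.79% of all tested genes, and the share higher is near that background. HERC5 was not called without HIF-2α KIN replicate 1. Blocking on the replicate number, 4 of these genes were called lower.

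Genes that brake or drive the cell cycle were called in both directions. Of 21 cell cycle inhibitors, cyclins and p53 targets, 2 were called higher (9.52%) and 1 lower (4.76%), beside 2.35% and 1.79% of all tested genes. Beside CCND1, CDKN1C, the cyclin-dependent kinase inhibitor p57, had 9.08, 0 and 2.81 in WT and 68.0, 34.3 and 22.0 in the clone, and MYCL, a MYC family member, changed by 1.71. Without HIF-2α KIN replicate 1 neither CDKN1C nor MYCL was called, and without WT replicate 2 or 3 only 1 of them was. Of 13 IGF-binding and CCN proteins 2 were higher (15.4%), CCN3 (1.69) and IGFBP6 (1.31), and 1 in each fit without HIF-2α KIN replicate 1 or 2 or WT replicate 1 or 2. Of 19 tested histone genes of the replication-dependent kind 2 were higher (10.5%), HIST1H2AC (1.59) and HIST1H2AG (1.71), with a median of 0.73. For the histones the number was 1 without HIF-2α KIN replicate 1 or WT replicate 1 and 4 when blocked on the replicate number.

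The most abundant called genes are the ones with the most reads behind them. After ITGA3 and RARRES2, the higher ones were KRT19, a keratin (37452 ± 4628 in WT and 75303 ± 4725 in the clone), GRN, progranulin (22848 ± 3584 and 45746 ± 4743), FTH1, ferritin heavy chain (14701 ± 2205 and 40813 ± 9569), and ID1, an inhibitor of differentiation factors (12918 ± 3376 and 35138 ± 11364). KRT19 and GRN sat at the fold threshold, with log2 changes of 1.01 and 1.00, and each fell below 1 without HIF-2α KIN replicate 1 or 3 or without WT replicate 1 or 2, to values of 0.925 to 0.995 for KRT19 and 0.893 to 0.995 for GRN. FTH1 was not called without HIF-2α KIN replicate 1 (1.26, edgeR adjusted p = 0.0215) or WT replicate 2 (1.35, edgeR adjusted p = 0.0217). Of the lower ones, after TGM2, NDST1 and CCND1, ECE1, the endothelin-converting enzyme, had 95874 ± 17143 in WT and 37214 ± 1052 in the clone, SYNPO, an actin-binding protein, had 48724 ± 11949 and 17322 ± 359, and CALU, calumenin, a calcium-binding protein of the secretory pathway, had 30869 ± 2247 and 14140.1 ± 2606. CALU was at -0.98 and not called without HIF-2α KIN replicate 1.

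Many of the called higher genes lie on chromosome 17. It held 123 of the 550 higher genes (22.4%) and 13 of the 420 lower genes (3.10%), beside 5.94% of the genes tested. Medians by chromosome were taken over the genes whose normalized counts averaged at least 50 over the 6 libraries. Over all 12576 such genes the median log2 change was -0.06. The 779 genes of chromosome 17 had a median of 0.44, those of chromosome 14 (402 genes) 0.35 and those of chromosome 21 (122 genes) -0.39. The other chromosomes lay between -0.18 and -0.01.

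The same was seen library by library, as the median difference of a chromosome's genes from the WT mean, in log2 units of normalized count plus 1. For chromosome 17 the WT libraries gave -0.0442, 0.0108 and 0.0383 and the HIF-2α KIN libraries 0.455, 0.424 and 0.416, while the 18 L30-driven libraries ran from -0.105 to 0.0862. For chromosome 14 the clone libraries gave 0.347, 0.405 and 0.354 against -0.117 to 0.138 in the L30-driven libraries. For chromosome 21 they gave -0.387, -0.372 and -0.309 against -0.0857 to 0.0632. The clone libraries thus lay above the range of the WT and L30-driven libraries on chromosomes 14 and 17 and below it on chromosome 21. HIF-1β KIN also lay above that range on chromosome 17, at 0.170 to 0.328, but not on chromosome 14 (-0.176 to -0.0289), and it lay above it on chromosome 15, at 0.235 to 0.352, where HIF-2α KIN gave -0.213 to -0.125 and lay below it. On chromosome 11 the HIF-2α KIN libraries also lay below it, by less, at -0.124 to -0.0625 against -0.048 to 0.0683 in the L30-driven libraries.

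**Figure D4:**
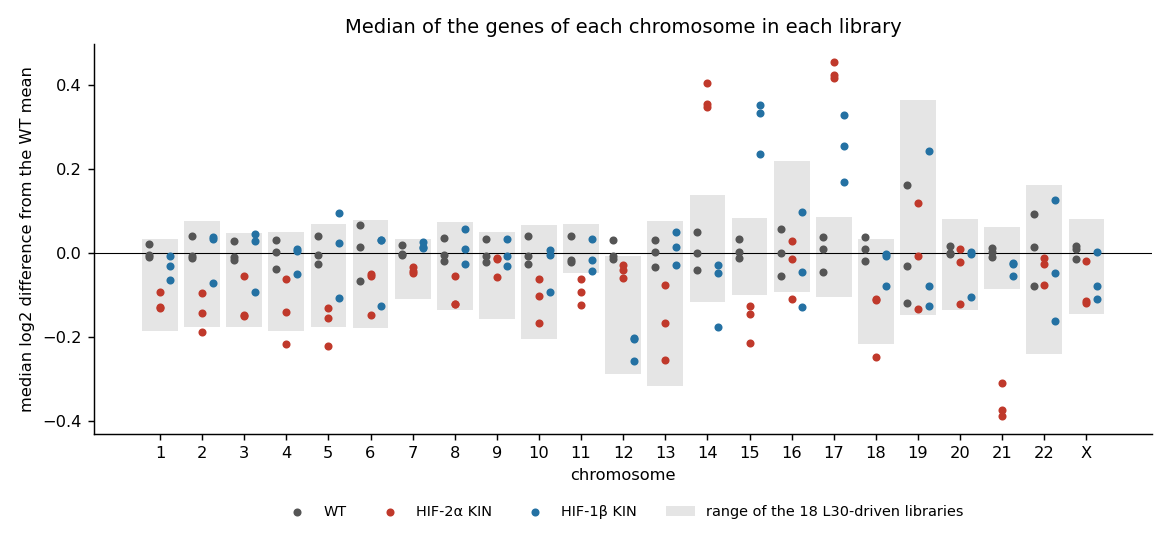
For each chromosome, the median log2 difference from the WT mean over its genes averaging at least 50 normalized counts, 1 point per library of WT (grey), HIF-2α KIN (red) and HIF-1β KIN (blue), with grey boxes for the range of the 18 L30-driven libraries. The red points stand highest above the grey boxes on chromosomes 14 and 17 and farthest below them on chromosome 21, and the blue points stand above them on chromosomes 15 and 17.

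Along chromosome 17 the difference was not spread evenly. Bounds at 25, 45 and 50 Mb (hg38) were set after the values were seen. In the first 25 Mb the median log2 change of 204 genes was -0.01, and 47.5% of them were above 0. From 25 to 85 Mb the median of 575 genes was 0.59, a 1.51-fold difference, and 89.6% of them were above 0. The clone libraries gave 0.609, 0.579 and 0.594 there and the L30-driven libraries -0.130 to 0.0834. Between 45 and 50 Mb the median of 65 genes reached 1.12, a 2.17-fold difference, 34 of the 65 were called higher and none lower, and the clone libraries gave 1.13, 1.09 and 1.11. GNGT2, ABI3 and the HOXB genes lie in this stretch, and ITGA3 just beyond it. HIF-1β KIN had medians of -0.02 before 25 Mb, 0.34 from 25 Mb on and 0.58 between 45 and 50 Mb, lower than HIF-2α KIN at both. On chromosome 14 the windows of 5 Mb with at least 20 genes had medians between 0.16 and 0.43. None of these lie between 15 and 20, 25 and 50, 80 and 90, 95 and 100 or 105 and 110 Mb, where windows held fewer genes and were not read. Changes of single genes from 25 Mb on, such as those of FZD2, WNT3, GRN, KRT19, ITGA3 and ITGB4, stand beside a shift shared by their neighbours.

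**Figure D5:**
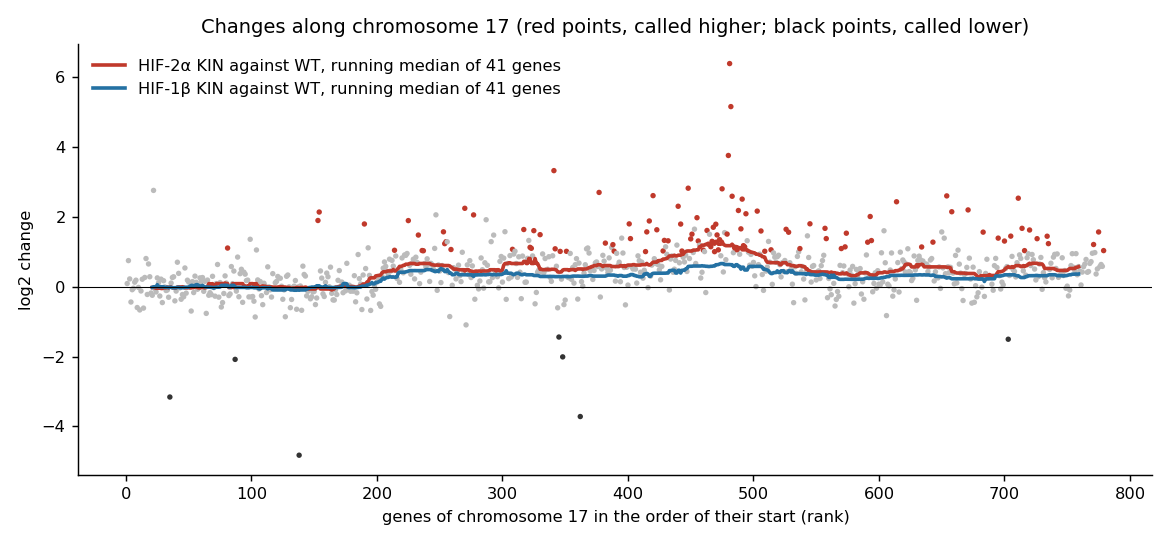
Log2 change, HIF-2α KIN against WT, of the 779 genes of chromosome 17 averaging at least 50 normalized counts, in the order of their start, with called genes in red (higher) and black (lower). The running median over 41 genes of HIF-2α KIN (red line) stays near 0 over the 204 genes of the first 25 Mb, then rises and is highest over the stretch from 45 to 50 Mb, and that of HIF-1β KIN (blue line) follows it at a lower height.

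Outside chromosome 17, 427 genes were called higher. Of the called higher genes in the groups above it holds 9 of 12 HOX genes, 3 of 5 Wnt genes and 2 of 4 integrins. The tested members of these lists on it number 9, 4 and 3. It holds 1 of the 9 higher growth factor genes and none of the 4 retinoid genes, with 1 tested member of each list on it. None of the lower HIF-2α targets or cytokines lie on it, where 1 and 2 members were tested. These counts follow how many members lie on the chromosome and do not show that its shift spared any group.

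The clones were compared with each other directly, to see which changes the HIF-1β KIN clone did not have. HIF-2α KIN had 370 genes called higher than HIF-1β KIN (1.58% of those tested) and 203 called lower (0.867%). Without HIF-1β KIN replicate 1 the number called higher was 237. The same HIF-2α KIN libraries serve in this comparison and in that with WT. Against WT, HIF-1β KIN itself had 92 genes higher (0.393%) and 230 lower (0.982%), and these comparisons share the WT libraries.

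Set side by side, the HIF-2α targets were lower in HIF-2α KIN against either line. Their median log2 difference was -0.69 against WT and -0.83 against HIF-1β KIN, with 11 and 9 members called lower, and HIF-1β KIN against WT gave 0.03 with 1 member called lower. CA12 differed between the clones by -2.03 (edgeR adjusted p = 2.09e-06), VEGFA by -1.16 (9.5e-07) and CCND1 by -1.39 (9.49e-05), and each had a mean in HIF-1β KIN close to that in WT: 11125 ± 1352, 16722 ± 1324 and 34588 ± 10415 (mean ± SD, n = 3). EPAS1 was at 7565, 10116 and 13469.8 in HIF-1β KIN, a range that overlaps that of WT and lies above HIF-2α KIN, and the difference of -0.75 between the clones did not pass (edgeR adjusted p = 0.0198). Of the cytokine list 9 members were lower than in HIF-1β KIN. Of the HOX genes 3 were higher than in HIF-1β KIN. HOXB13 had 0, 0 and 0.854 there, below the WT level.

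Over the batch, 203 of the 550 higher genes (36.9%) were higher in each HIF-2α KIN library than in all 24 other libraries, and 178 of the 420 lower genes (42.4%) were lower than in all of them. Of all tested genes 1.82% were above and 1.56% below all 24 others.

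The genes that respond to added HIF-2α in the second batch were also followed as a whole. There, 1566 genes were called higher and 611 lower in the L30-driven HIF-2α line than in WT, and 1517 and 608 of them were tested in the first batch. Of the 1517 raised genes, 143 (9.43%) were higher and 113 (7.45%) lower in HIF-2α KIN. Of the 608 lowered genes, 39 (6.41%) were higher and 71 (11.7%) lower. Of 20790 genes called in neither direction in the second batch, 1.77% were higher and 1.14% lower. The median log2 change was 0.00 for the raised genes and -0.20 for the lowered genes, so the raised genes as a whole, unlike the list of HIF-2α targets, were called in both directions.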

How the data were processed

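Poly-A RNA-seq of 3 replicates per line, called biological replicates in the study's methods, was used as deposited. The deposited values are raw counts: the authors aligned reads to hg38, kept unique alignments and counted them per gene without strand on GENCODE release 32 with HTSeq in union mode (60609 genes per library). The submitters' processing notes name STAR 2.7, SAMtools 1.9, HTSeq 0.11.1, FastQC, deepTools 2.4.1 and DESeq2, without roles. Batch 1 RNA was purified on columns and batch 2 RNA with TRIzol, so the batches were fitted apart.

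From the counts, genes averaging at least 0.5 normalized counts over the batch were tested with edgeR 4.0.16 (limma 3.58.1, R 4.3.3): TMM factors, quasi-likelihood, all 27 libraries of batch 1 or 15 of batch 2 in 1 fit with line as the factor, Benjamini-Hochberg adjustment over all tested genes. Genes were called at an adjusted p no higher than 0.01 where the change was 2-fold or more. Normalized counts are counts divided by effective library size and multiplied by the mean of those sizes. Genes at 3 counts or fewer in every library of a group were given a bound against that floor. Positions come from GENCODE release 44 on hg38, matched by gene identifier for 99.6% of tested genes, and the 250 bases upstream of genes from RefSeq. The fit was tested on simulated counts with known changes.

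Deviations from the group means of same-numbered HIF-2α KIN and WT libraries correlated at 0.123, 0.156 and 0.379 over tested genes. Libraries of unlike number gave -0.241 to 0.116, the highest for HIF-2α KIN replicate 2 with WT replicate 1. Only replicate 3 thus stood well apart, the pairing was uncertain, and a fit with the number as a block was an alternative. Further alternatives were DESeq2 1.42.0, RLE factors, other filters, the compared groups alone, a test against a fold of 1.5 and leaving out each library. Named genes were all HIF subunits and regulators, all tested genes within 500 kb of EPAS1, the 12 largest changes each way at a mean of at least 50, the 6 most abundant called genes each way, up to 6 each way at the floor of one group, and in each list up to 4 called members with the largest change, or up to 2 of the most abundant where none was called. A few genes that this rule names are not reported here. Genes were added to these after their values were seen: the rest of the HIF-2α targets and cytokines called, FGF receptors, HBEGF, PDGFA, HOXA9, HOXA10 and GDF15. The samples, gene lists and rules were chosen with earlier results of these data known. Spike-in reads were not analysed here, so a change in total RNA per cell would not be seen.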

Additional observations from a re-analysis of the deposited data

Results flagged for a closer look

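For 21 of the genes with the largest changes or highest levels, HIF-2α KIN and HIF-1β KIN differed from each other by edgeR's quasi-likelihood test (adjusted p no higher than 0.01, change of 2-fold or more), so the difference between each clone and WT was itself different between the clones. Both differences from WT rest on the same WT libraries. The genes were picked among those called against WT, by change or level, and the same HIF-2α KIN libraries serve here, so many calls were built in. Of all tested genes 1.58% were called higher and 0.867% lower in HIF-2α KIN than in HIF-1β KIN.

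Higher in HIF-2α KIN than in HIF-1β KIN were, on the log2 scale, PTH1R by 9.01, GNGT2 by 6.27, ABI3 by 5.18, CYP26B1 by 4.95, FRAS1 by 4.74, BOC by 4.08, FREM2 by 3.50, SLC23A1 by 3.23, HABP2 by 2.97 and DHRS3 by 2.87. The difference for PTH1R depends on the prior count of the fit, since HIF-1β KIN had a mean of 0.285 normalized counts.

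Lower in HIF-2α KIN than in HIF-1β KIN were NID1 (log2 difference -6.28), PXDN (-6.22), DTNA (-5.07), ACKR3 (-4.70), HS6ST2 (-4.11), KCNJ15 (-2.99), PHETA2 (-2.54), TGM2 (-2.43), SYNPO (-1.42), CCND1 (-1.39) and CALU (-1.005). DTNA, HS6ST2 and KCNJ15 had 3 counts or fewer in every HIF-2α KIN library, so their fitted values are no bound.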

How the results depend on the processing

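More genes were called higher than lower under every alternative run for HIF-2α KIN against WT. Outside chromosome 17 the higher genes numbered 427 in the main fit and 306 to 394 with a library left out. They numbered 239 in a test against a fold change of 1.5. The lower genes of all chromosomes numbered 420, 330 to 384 and 251, so outside chromosome 17 an excess was not shown in all of these fits. DESeq2 called 759 genes higher and 483 lower, RLE factors 592 and 399, no filter 632 and 504, a mean of at least 10 586 and 411, and the 2 groups alone 567 and 364. A test against a fold change of 1.5 gave 308 and 251, with 92 of the genes raised in the second batch higher, and 188 higher and 113 lower against HIF-1β KIN. Leaving out a library gave 395 to 515 higher and 330 to 384 lower, and, against HIF-1β KIN, 237 to 326 higher, the lowest without HIF-1β KIN replicate 1. HOX genes called lower then numbered 0 to 1, and the median of chromosome 21 ran from -0.43 to -0.30. With the replicate number as a block, 736 genes were higher and 533 lower, 968 of the 970 calls held, and beyond the list counts given with the results it changed no count of calls by more than 1.5 times. Genes that were not called changed sign: ARNT (0.036 with DESeq2 and with RLE, 0.023 at a mean of at least 10, 0.019 with the 2 groups alone), MCM7 (0.021, 0.021, 0.0072 and 0.0031), ATP5F1B (0.024, 0.024, 0.012 and 0.0097) and CYC1 (0.0015 with DESeq2 and RLE). When a library was left out, the ranges were -0.16 to 0.16 for ARNT, -0.11 to 0.12 for MCM7, -0.13 to 0.063 for ATP5F1B, -0.22 to 0.046 for CYC1, -0.53 to 0.86 for EGLN2, -0.19 to 0.34 for FASN, -0.84 to 0.28 for LINC01118, -0.44 to 0.22 for MT-CO1, -0.13 to 0.23 for PIGF and -0.029 to 0.26 for VHL. The cause of these changes was not tested. With 1 clone and 3 libraries per group, spread between clones was not measured.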
